A study of Mus musculus with 15 samples.

Results

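The regions described here are the *116HG* ChIRP-seq peaks of adult WT mouse brain that appeared in the second replicate only. They were selected on the measured peak positions: an autosomal peak of WT *116HG* replicate 2 is a member when the nearest peak of WT *116HG* replicate 1 and of each of the 3 control lists lies more than 10 kb away. Of the 11145 peaks of replicate 2, 9221 lay on the 19 autosomes, and 4637 of these were members. The 5 peak lists of the series together held 97524 peaks. Chromatin isolation by RNA purification (ChIRP) pulls an RNA out of cross-linked, sheared chromatin with biotinylated oligos, and the DNA that comes along is sequenced. The lists came from 1 library each: *116HG* oligos on WT brain in replicates 1 and 2, non-specific control (NSC) oligos on WT brain, and both oligo sets on *Snord116del* brain. WT mice were C57BL/6J, and *Snord116del* (+/-) mice, of strain B6(Cg)-Snord116tm1.1Uta/J, lack the *Snord116* cluster on the chromosome inherited from the father. All were adults, and ChIRP was done on brain tissue, so the cell types that gave rise to a peak are not known. Members come from 1 library, so the spread between ChIRP experiments is not known, and all intervals cover counting error only. RNA-seq values were also used, from the cortex of male WT and *Snord116del* (+/-) mice. These mice were killed at Zeitgeber times Zt 6, in the light phase (3 WT and 2 *Snord116del* samples), and Zt 16, in the dark phase (2 and 2 samples).

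*116HG* is the spliced host transcript of the *Snord116* small nucleolar RNAs, which are expressed from the paternal copy of the Prader-Willi locus. It accumulates as a nuclear RNA cloud in neurons. Much of the mouse genome outside exons consists of copies of a few mobile elements. B1 elements are short interspersed elements (SINEs) that derive from the 7SL RNA of the signal recognition particle and end in a run of A, and L1 elements are long interspersed elements that encode the proteins used to copy both. Microsatellites are short units repeated in tandem, and short reads from such copies can be hard to assign to one place.

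Because the rule removed every peak near the other lists, the bases over 10 kb from every peak of the other 4 lists, where a member could lie, were taken as the background and are called open here. They comprised 1763 Mb of the autosomes, 73.6% of the bases other than N. Members lay there at 2.63 per Mb. They were narrow, with a median width of 95 bp (range 51 to 1340 bp), and 53.1% were under 100 bp wide. The other 4584 autosomal peaks of replicate 2 had a median width of 90 bp, and the autosomal peaks of replicate 1 one of 158 bp. The distance from a member to the nearest peak of another list had a median of 39.9 kb and reached 698.9 kb. Of the 4584 other peaks, 3881 lay within 10 kb of a replicate 1 peak, 832 of a WT NSC peak, 200 of a *Snord116del* *116HG* peak and 422 of a *Snord116del* NSC peak. Near the threshold, 245 members lay 10 to 12 kb from another list, and 301 replicate 2 peaks that are no members lay 8 to 10 kb away. The 3 members closest to the threshold, in introns of *Cdc45*, *Lrriq1* and *Asb14*, were 10.011, 10.016 and 10.023 kb from the nearest other peak. The 3 peaks closest on the other side were at 10.0, 9.999 and 9.995 kb and lay outside genes.

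The sequence at the middle of each member was read from NCBIM37, the assembly of mm9, in a window of 100 bases. The 4637 members fell into 6 groups by what that window held. A run of 12 or more A (or T on the other strand) without a word of the B1 element was found in 1171 members (25.3%), and such a run together with a B1 word in 470 (10.1%). A B1 word without a run was found in 384 (8.28%) and an L1 word in 168 (3.62%). Another tandem repeat was found in 693 (14.9%), and 1751 (37.8%) held none of these. The words are 12-base sequences picked because they were the most frequent in these members, so their counts describe the members and support nothing. The letters searched, on either strand, were acagagaaaccc, gtgctgggatta, aggacagccagg and gaggcagaggca for B1 and atgcaaatcaaa, aaaccacatgat and gatgtggagaaa for L1. Copies with a mismatch in the word were not counted. The groups without a word can therefore hold diverged or other parts of B1 and L1 elements.

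The following members show what some of the groups look like. Each is among the members nearest to its group's median width, chosen after the values were seen. Capitals mark the run, the tandem repeat or the word, and positions are on the plus strand of mm9. The first has a B1 word followed by a run of A, and lies outside genes.
chr13:73078378-73078456: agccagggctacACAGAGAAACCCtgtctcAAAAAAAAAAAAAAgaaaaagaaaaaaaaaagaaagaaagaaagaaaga
A run without an exact B1 word was found in an intron of *Ece2*, read as T on this strand. The bases next to it, gagacaggg, are the reverse complement of ccctgtctc, which precedes the run in the B1 consensus given below.
chr16:20635410-20635484: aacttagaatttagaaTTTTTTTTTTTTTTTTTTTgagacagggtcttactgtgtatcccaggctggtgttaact
An AC repeat and an AT repeat were found in introns of *Macrod2* and *Ppfia2*.
chr2:140583111-140583208: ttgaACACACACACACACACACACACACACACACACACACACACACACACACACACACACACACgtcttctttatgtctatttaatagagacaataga
chr10:106007767-106007861: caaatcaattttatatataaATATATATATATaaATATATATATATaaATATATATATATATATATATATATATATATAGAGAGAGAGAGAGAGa
A member outside genes on chromosome 1 held none of the searched features, although its middle 32 bases occurred 4752 times in the genome. Which repeat family this copied sequence belongs to was not worked out.
chr1:147869708-147869830: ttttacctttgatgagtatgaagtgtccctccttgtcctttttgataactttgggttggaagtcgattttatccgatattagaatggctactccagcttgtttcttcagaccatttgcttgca

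The commonest word, acagagaaaccc, was present in 436 members (9.40%) and in 0.409% of all 100-base windows of the autosomes. Aligned on this word, 421 of these members gave a shared sequence, in which the commonest base had a median support of 91.3% of the members per position (lowest 47.3%).
Consensus, word in capitals: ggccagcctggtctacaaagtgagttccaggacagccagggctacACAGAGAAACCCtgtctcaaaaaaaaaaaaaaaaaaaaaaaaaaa
This is the 3′ part of a B1 element, and it continued into its terminal run of A.

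Runs of A or T were the commonest of the searched features in members. A run of at least 12 was present in 1641 members, 35.4% (exact 95% interval 34.0 to 36.8%), against 1.04% of the open windows, a ratio of 34.2. The other replicate 2 peaks held a run in 54.6% (53.2 to 56.1%), a difference (members minus others) of -19.2 percentage points (Newcombe 95% interval -21.2 to -17.2). The share was 10.2% in replicate 1, 13.3% in WT NSC, 0.338% in *Snord116del* *116HG* and 0.374% in *Snord116del* NSC. Copies of one element are not independent, which the intervals do not cover. The share of members with a run also moved with the distance to other lists, from 45.3% of the 245 members at 10 to 12 kb to 29.4% of the 1878 members over 50 kb away.

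**Figure D1:**
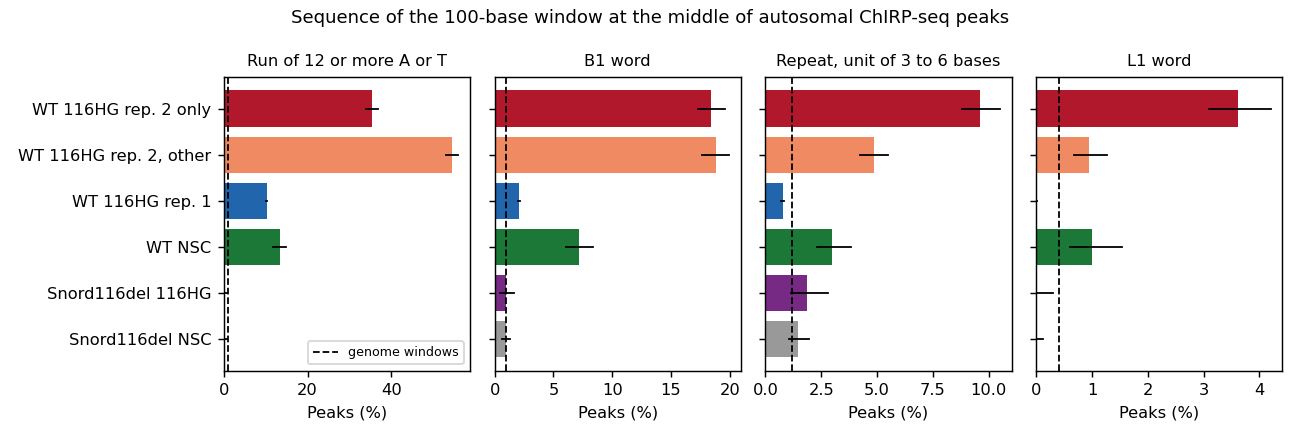
Share of autosomal peaks (%, bars, with exact 95% intervals as black lines) whose 100-base middle window held a run of 12 or more A or T, a B1 word, a tandem repeat with a unit of 3 to 6 bases, or an L1 word, for the replicate 2 only peaks, the other replicate 2 peaks and the 4 other lists. The dashed line is the share of genome windows open to members; the replicate 2 only peaks stand at 35.4%, 18.4%, 9.62% and 3.62%, against 1.04%, 0.990%, 1.21% and 0.408% of the windows.

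The number of members with a given longest run, divided by the number of autosomal windows with such a run, rose with run length. Per 100000 such windows, there were 12.3 members at 0 to 7 bases, 199.9 at 12 to 15, 943.4 at 20 to 24 and 4439 at 30 or more. For the other replicate 2 peaks, the values over the same windows were 8.64 at 0 to 7 bases and 14928 at 30 or more. Members could lie only in the open part, 73.6% of the bases, and the other peaks only outside it. Which of the 2 sets is denser is therefore not read from these values, only the rise with run length within each. Among peaks with a run of 12 or more, the median longest run was 24 bases in members, 31 in the other replicate 2 peaks and 15 in all such windows of the autosomes. Windows were cut at fixed positions, whereas a peak's window is centred on the peak, so runs across a window border count as shorter in the background.

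**Figure D2:**
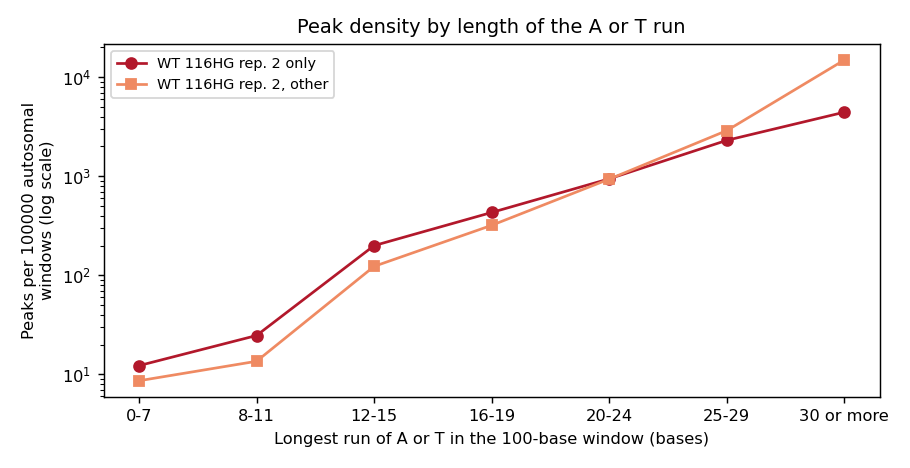
Number of replicate 2 only peaks (circles) and of other replicate 2 peaks (squares) per 100000 autosomal windows of 100 bases (log scale), by the longest run of A or T in the window (bases). Both climb with run length, from 12.3 and 8.64 at 0 to 7 bases to 4439 and 14928 at 30 or more. Both are divided by all autosomal windows, so their levels, and where they cross, also depend on how much of the genome was open to each.

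The runs sat at the peaks' middles. At the 20 central positions, 20.3% of members were covered by a run, compared with 0.195% at 400 to 500 bases away on either side. In the other replicate 2 peaks the values were 38.0% and 0.253%. Replicate 1 and WT NSC peaks had smaller central maxima, of 6.12% and 5.34%, and the *Snord116del* lists had none above 0.329% anywhere within 500 bases. Within genes annotated on 1 strand only, the run read as A on the gene's strand in 247 members and as T in 376. That is 39.6% A on the gene's strand (exact 95% interval 35.8 to 43.6%), and over all runs in such genes the share was 39.8%.

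**Figure D3:**
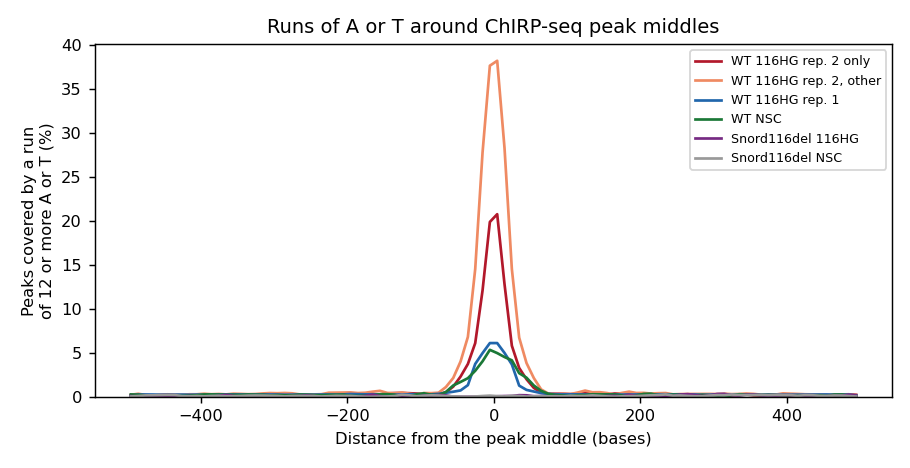
Share of peaks (%) covered by a run of 12 or more A or T at each distance from the peak middle (bases, in steps of 10), for the replicate 2 only peaks and the other groups of autosomal peaks. The replicate 2 only peaks reach 20.8% at the middle and 0.195% at 400 to 500 bases, and the other replicate 2 peaks reach 38.3%.

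B1 words, with or without a run, were present in 854 members (18.4%) and in 18.8% of the other replicate 2 peaks. Since the words were chosen for their frequency in members, shares in other sets are lowered by that choice and no difference is drawn from them. The windows open to members held one in 0.990%. Among members with a single-copy middle the share was 11.3%, and among those at least as wide as the median it was 12.9%. The share was 2.08% in replicate 1, 7.18% in WT NSC and 0.928% and 0.936% in the *Snord116del* lists. A B1 word and a run together were present in 10.1% of members and in 0.0755% of the open windows, with the same limit.

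Microsatellites with a unit longer than 1 base, of the kinds given below, were more frequent in members than in the rest of replicate 2. Both sets come from 1 library and were split by closeness to other lists, so how far the split itself sets this difference was not tested. The interval below covers counting error only. Repeats with a unit of 3 to 6 bases were present in 446 members (9.62%), against 4.84% of the other replicate 2 peaks (difference 4.78 points, Newcombe 95% interval 3.73 to 5.83) and 1.21% of the open windows. AG repeats were present in 241 members (5.20%, against 1.85% of the other peaks), AC repeats in 227 (4.90%, against 2.31%) and AT repeats in 166 (3.58%, against 1.22%). Relative to the open windows, the ratio was 10.9 for AT repeats, 6.38 for AG and 2.79 for AC, although AC repeats are the commonest of the 3 in those windows (1.75%). Runs of 12 or more G or C were present in only 9 members (0.194%), and in 0.151% of the open windows. L1 words, also chosen in members, were present in 3.62% of members, in 0.938% of the other replicate 2 peaks and in 4 of the 74621 autosomal peaks of replicate 1. Any tandem repeat, runs included, was present in 51.5% of members, 60.5% of the other replicate 2 peaks and 4.93% of the open windows.

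Members were poor in G and C. The median GC content of their windows was 37%, compared with 34% in the other replicate 2 peaks, 48% in replicate 1, 41% in WT NSC and 63% in both *Snord116del* lists. The open windows had a median of 41%. A GC content under 30% was found in 23.5% of members and one above 60% in 38 of them (0.819%). No CpG was present in 59.2% of the members' windows. The groups differed among themselves: the median GC content was 30% in members with a run and no B1 word, 33% with both, and 51% in members with a B1 word alone. Members with none of the searched features had 41% and were the widest group, with a median of 123 bp against 75 bp for a run without a B1 word.

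Many members lay in sequence that occurs more than once. The middle 32 bases occurred a single time in the genome, both strands counted, in 1588 members (34.2%, exact 95% interval 32.9 to 35.6%). They occurred more than 1000 times in 883 members (exact 95% interval 17.9 to 20.2%). Single-copy middles were found in 27.6% of the other replicate 2 peaks, 82.4% of the replicate 1 peaks, 18.5% of the WT NSC peaks and 29.5% and 48.0% of the *Snord116del* *116HG* and NSC peaks. By group, the share was 50.6% for runs without a B1 word, 18.9% for runs with one, 23.4% for B1 words alone and 17.3% for L1 words. It was 29.1% for other tandem repeats and 33.5% for members with none of the searched features. In 467 members (10.1%) the middle 32 bases were the same as in another member. The commonest shared middle, found in 73 members, was a run, as in this member 80 bases from the start site of AC109245.1, where the run is in capitals:
chr1:142964510-142964583: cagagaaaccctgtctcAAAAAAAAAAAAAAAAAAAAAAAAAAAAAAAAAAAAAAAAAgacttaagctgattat
How reads that matched several places were assigned is not given in the sources used here, and its part in these positions was not tested. Among the members whose middle occurred once, 42.9% held a run and 11.3% a B1 word, against 35.4% and 18.4% of all members.

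Relative to genes, members were spread much as the open bases are, apart from exons and start sites. The middle base lay outside genes in 3040 members (65.6%, exact 95% interval 64.2 to 66.9%), against 65.0% of the open bases. It lay in a gene outside exons in 1553 (33.5%, 32.1 to 34.9%), against 33.2%. An exon held the middle base of 44 members, 0.949% (0.690 to 1.27%), against 1.81% of the open bases and 3.45% of all autosomal bases, and 27 of the 44 were exons of protein-coding genes. A start site lay within 5 kb of 673 members, 14.5% (13.5 to 15.6%), against 11.3% of the open bases, and of 22.3% when replicate 1 peaks did not exclude. In replicate 1, the middle base was exonic in 72.2% of peaks. Since the rule removed all peaks within 10 kb of these, the low exon share of members is in part fixed by the rule and the open bases are the closer comparison. The other replicate 2 peaks, most of them near a replicate 1 peak, were exonic in 3.82% and within 5 kb of a start site in 32.8%. By group, members with L1 words were the least often genic (25.6%) and the farthest from start sites, at a median of 67.2 kb. Members with a B1 word alone were genic in 43.0% and lay at a median of 18.4 kb. All 168 members with an L1 word were outside exons, as were all but 0.949% of all members. Of the 44 exonic members, 30 held none of the searched features, which was true of 37.8% of all members.

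**Figure D4:**
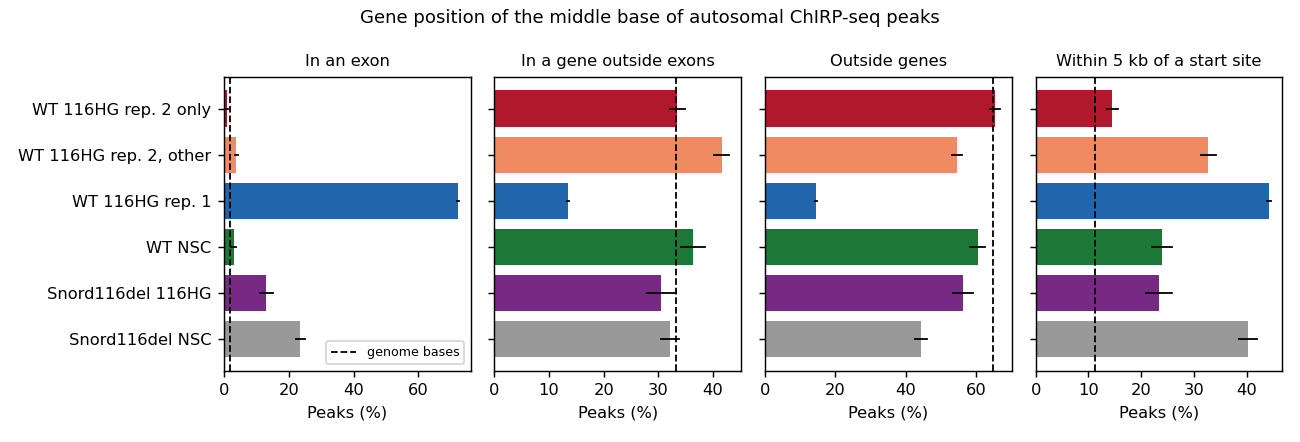
Share of autosomal peaks (%, bars, with exact 95% intervals as black lines) whose middle base lay in an exon, in a gene outside exons, outside genes, or within 5 kb of a start site. The dashed line is the share of bases open to members; the replicate 2 only peaks stand at 0.949%, 33.5%, 65.6% and 14.5% against 1.81%, 33.2%, 65.0% and 11.3%.

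Members were spread over all 19 autosomes. The density per open Mb was between 2.23 on chromosome 15 and 3.22 on chromosome 11, with a median of 2.65. The share of replicate 2 peaks that were members was between 32.9% on chromosome 7, which carries the Prader-Willi locus, and 57.2% on chromosome 13. The share of members with a run was lowest on chromosome 14 (23.1%) and highest on chromosome 11 (44.9%). The gap to the next member had a median of 345.9 kb, and 61.5% of members had no other member within 100 kb. Of the 4618 neighbouring pairs, 211 (4.57%) were within 10 kb.

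The densest 100 kb held 10 members, on chromosome 11 between 3070841 and 3100051 over *Sfi1*, which encodes a centrosome protein, and *Drg1*, which encodes a GTP-binding protein. The 5 widest members were all there, at 757, 1088, 1124, 1199 and 1340 bp, and lay 19.8 to 32.9 kb from the nearest peak of another list. Their middles occurred once in the assembly and held none of the searched features. The next windows were chromosome 13 from 3372686 to 3408886, with 7 members and no annotated gene, and chromosome 1 from 87353572 to 87432904, with 6 members, 2 of them in genes. None of these 6 had a middle that occurred once.

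In the Prader-Willi domain, where the rule also removed every peak near another list, a single member lay between *Ube3a* and *Snrpn*, outside annotated genes, 17.4 kb from the start of a SNORD115 copy and 11.6 kb from the nearest peak of another list. Its middle occurred once and it held no run, B1 word or L1 word.
chr7:66891749-66891882: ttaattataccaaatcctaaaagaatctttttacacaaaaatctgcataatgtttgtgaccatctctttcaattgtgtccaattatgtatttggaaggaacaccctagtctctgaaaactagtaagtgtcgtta
On the list of the Prader-Willi and Angelman domain, *Peg12*, an intronless imprinted gene expressed from the paternal copy, had a member whose middle lay 0.091 kb upstream of its start site. This member held a run, in capitals, and had a single-copy middle.
chr7:69609432-69609541: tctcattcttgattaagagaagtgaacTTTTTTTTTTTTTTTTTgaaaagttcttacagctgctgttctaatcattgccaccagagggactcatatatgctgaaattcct

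Longer genes more often had a member, while the density of members per Mb of gene was not highest in the longest genes. In all, 1523 of 31492 annotated autosomal genes (4.84%) had a member inside them or within 2 kb, and 1279 of these had 1. Among protein-coding genes, the share with a member was 1.09% under 20 kb of length, 5.48% at 20 to 50 kb, 11.6% at 50 to 100 kb, 22.2% at 100 to 200 kb and 39.3% over 200 kb. Per Mb of gene, the density was 0.928 under 20 kb and 1.74, 1.89, 1.80 and 1.403 in the longer classes, in order of length. Over all autosomal bases other than N it was 1.94 per Mb. A gene with a replicate 1 peak loses 10 kb on each side of it to the rule, so the order of these densities is in part fixed by the rule.

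The genes with the most members were *Gm20388* with 11 over an annotated span of 4435 kb, *Sfi1* and *Gpc5* with 8 each, *Ctnna3* with 7, and *Drg1*, *Rbms3* and *Prkg1* with 5 each. *Gpc5* encodes a heparan sulfate proteoglycan, *Ctnna3* a catenin, *Rbms3* an RNA-binding protein and *Prkg1* a cGMP-dependent kinase. *Bai3*, *Ctnna2*, *Cntn5*, *Pde4d* and *Cntnap2* had 4 each. A run was held by all 4 members of *Bai3* and of *Cntnap2*, 4 of 5 in *Prkg1*, 1 of 8 in *Sfi1* and none of 4 in *Pde4d*. It was held by 2 of 4 in *Ctnna2* and in *Cntn5* and 2 of 8 in *Gpc5*. The counts were 1 of 5 in *Rbms3*, 1 of 7 in *Ctnna3*, 1 of 11 in *Gm20388* and 0 of 5 in *Drg1*. Over all members the share was 35.4%, and with so few members per gene no difference between genes is read from these counts. The pseudogene *Fau-ps2*, *Klhdc4* and *Hnf4a*, which encodes a liver and gut nuclear receptor, had 3 each and completed the 15, with ties ordered by gene length, shorter first, so that longer genes with 3 members are not among them. *Sfi1* and *Drg1* are neighbours that overlap, and some members were counted for both.

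Function lists differed in how many of their genes had a member, and so did the lengths of their genes. Over all annotated autosomal genes the share with a member was 4.84%. Among protein-coding genes it was 5.48% at 20 to 50 kb, 11.6% at 50 to 100 kb and 39.3% over 200 kb. Whether a list departs from the share at its gene lengths was not tested. For synaptic adhesion, the count was 24 of 33 annotated genes, with a median gene length of 968.4 kb. It was 8 of 26 for glutamate and GABA receptors (353.9 kb), 4 of 21 for mTOR and insulin/IGF signalling (58.3 kb), 3 of 27 for other imprinted genes (21.0 kb), 2 of 21 for the core clock (32.9 kb) and 0 of 12 for H3K4 methyltransferase subunits (26.8 kb), the complex that methylates histone H3 at active promoters. The clock genes were *Rora*, which encodes a nuclear receptor that activates *Arntl*, and *Hlf*, which encodes an output transcription factor. The signalling genes were *Rictor*, a component of mTOR complex 2, *Deptor*, an inhibitor of mTOR, and the receptors *Igf1r* and *Igf2r*. The other imprinted genes were *Kcnq1*, *Commd1* and *Airn*, the antisense RNA that silences *Igf2r* in cis. *Airn* and *Igf2r* overlap, each had 2 members, and both members of *Airn* were within 2 kb of a start site.

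Cortex RNA was then read for the genes with a member. The table gives 1 FPKM value (fragments per kilobase of transcript, scaled to library size) per group, so the spread between mice is not seen and no test was possible. A gene was counted as past the fold rule when FPKM + 1 differed at least 1.5-fold between *Snord116del* and WT at the same time with at least 1 FPKM in one group. It was applied to the 9838 autosomal genes whose 4 group values averaged 1 FPKM or more, of which 596 had a member. The cortex expressed markers of neurons, astrocytes, oligodendrocytes, microglia, endothelium and choroid plexus, and none of the 35 was at 0 in all groups. In WT and *Snord116del*, respectively, the summed level of the 6 astrocyte markers was 92.5 and 287.1 FPKM at Zt 6 and 46.3 and 66.9 at Zt 16. For the 8 neuron markers, it was 928.4 and 1650 FPKM at Zt 6 and 715.8 and 981.3 at Zt 16. The 4 choroid plexus markers summed to 202.1 and 183.8 FPKM at Zt 6 and to 25.4 and 30.1 at Zt 16. The 6 oligodendrocyte markers summed to 445.4 and 703.0 FPKM at Zt 6 and 718.0 and 1035 at Zt 16, the 6 microglia markers to 65.7 and 88.6 and to 76.4 and 142.6, and the 5 endothelium markers to 5.06 and 15.9 and to 2.68 and 2.99. The part of these levels in what follows was not tested, and in tissue fewer cells of a type and less RNA per cell cannot be told apart.

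At Zt 6, 420 of the 596 genes with a member (70.5%, exact 95% interval 66.6 to 74.1%) were higher in *Snord116del*, against 49.2% of all genes tested, and 10 (1.68%) were lower, against 7.42%. In either direction, 430 (72.1%) were past the rule, against 56.6%. The median log2 difference was 0.93 over genes with a member and 0.57 over all genes tested, so the whole table was shifted upward. At Zt 16, 31 (5.20%) were higher, against 19.2%, and 1 (0.168%) was lower, against 0.193%, with medians of 0.23 and 0.35. In either direction there were 32 (5.37%), against 19.4%. When every group was scaled to the same median, 161 genes with a member were higher and 51 lower at Zt 6 (27.0% and 8.56%, against 14.8% and 24.5% of all genes tested). With that scaling, 0 were higher and 2 (0.336%) lower at Zt 16, against 1.21% and 0.478% of all genes tested.

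These shares moved with gene length. Genes with a member had a median length of 133.2 kb, against 23.4 kb over all genes tested. Among genes over 200 kb, 78.8% of the 226 with a member were higher at Zt 6 and 82.1% of the 385 without one. At 50 to 200 kb the shares were 73.2% of 284 and 76.2% of 1923, and under 50 kb they were 39.5% of 86 and 38.1% of 6934. At Zt 16, the shares higher were 3.98% and 5.45% over 200 kb, 3.87% and 6.66% at 50 to 200 kb, and 12.8% and 24.7% under 50 kb, with and without a member, respectively. In every class the share was lower for genes with a member than without one, except under 50 kb at Zt 6.

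**Figure D5:**
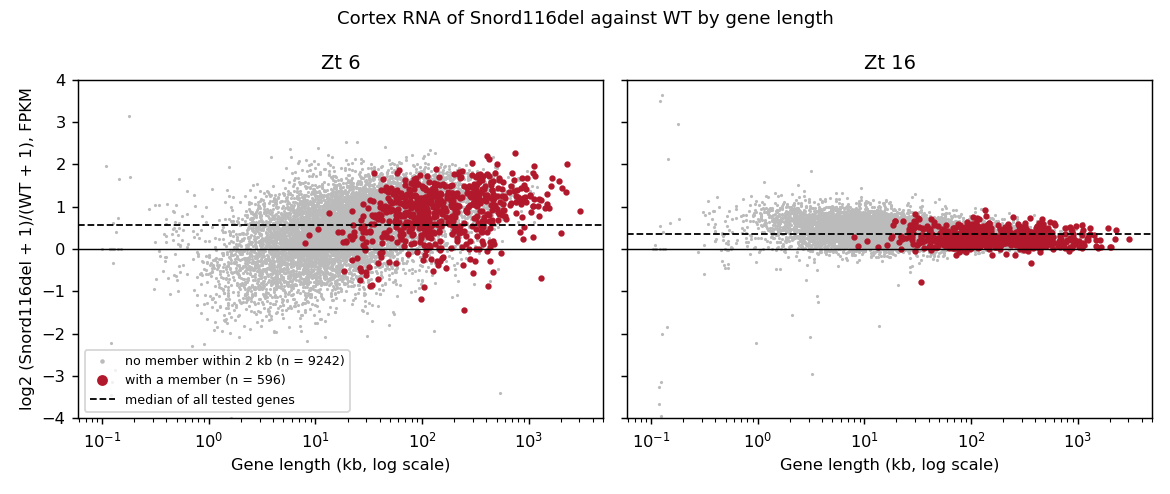
Difference of *Snord116del* from WT cortex (log2 of FPKM + 1, 1 value per group) against gene length (kb, log scale) at Zt 6 and Zt 16 for the 596 tested genes with a replicate 2 only peak within 2 kb (red) and the 9242 without (grey), with 7 and 9 grey genes beyond the axis. The red genes lie among the longer ones and range from -1.45 to 2.28 at Zt 6 and from -0.79 to 0.91 at Zt 16; the dashed line is the median of all tested genes.

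The 5 largest differences upward at Zt 6 among genes with a member were in genes of 295.7 kb or longer. *Dgkb*, a diacylglycerol kinase, had 2.31 FPKM in WT against 15.1 in *Snord116del* at Zt 6 (log2 difference of FPKM + 1, 2.28), and 0.680 against 0.862 FPKM at Zt 16. *Pcdh7*, a protocadherin, was at 3.33 and 18.7 FPKM at Zt 6 (2.19) and at 1.01 and 1.32 at Zt 16. *Ptprd*, a receptor phosphatase of synapses, was at 8.08 and 35.7 FPKM at Zt 6 (2.02) and at 3.33 and 4.87 at Zt 16. All 3 were thus more than 1.5-fold apart at Zt 6 and short of that at Zt 16, as were *Fstl4* and *Ano3*, with log2 differences of 2.12 and 2.04 at Zt 6 and 0.39 and 0.15 at Zt 16. With equal group medians, the 5 differences at Zt 6 were between 1.23 (*Ptprd*) and 1.57 (*Dgkb*), still past the rule.

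The largest differences downward at Zt 6 included the mitochondrial genes *Atp5o*, *Mrpl33* and *Fars2*. Each had 1 member, somewhere in an annotated span of 247.3, 105.0 and 420.2 kb, respectively, and not within 2 kb of a start site of the gene. *Atp5o*, a subunit of ATP synthase, had 193.1 FPKM in WT against 70.0 in *Snord116del* at Zt 6 (log2 difference -1.45), and 347.6 against 588.9 FPKM at Zt 16 (0.76). *Mrpl33*, a protein of the mitochondrial ribosome, was at 31.4 and 16.3 FPKM at Zt 6 (-0.91) and at 38.3 and 65.8 at Zt 16 (0.76). *Fars2*, which charges the mitochondrial tRNA of phenylalanine, was at 7.79 and 3.78 FPKM at Zt 6 (-0.88) and at 14.0 and 20.9 at Zt 16 (0.54). *2310061C15Rik* was at 5.90 and 2.77 FPKM at Zt 6 (-0.87) and at 8.20 and 13.9 at Zt 16 (0.70). *Atp5o*, *Mrpl33* and *2310061C15Rik* were past the fold rule downward at Zt 6 and upward at Zt 16. With equal group medians, their log2 differences were -2.28, -1.70 and -1.51 at Zt 6 and 0.29, 0.31 and 0.27 at Zt 16, where they no longer passed the rule.

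At Zt 16, the 3 largest differences upward were in *Kcnk2*, a potassium channel gene (3.54 FPKM in WT and 7.52 in *Snord116del*, log2 difference 0.91), *Cda*, which encodes cytidine deaminase (1.07 and 2.69 FPKM, 0.83), and *Lyrm4*, which acts in iron-sulfur cluster assembly (2.61 and 5.19 FPKM, 0.78). The single gene lower was the noncoding *Speer7-ps1*, at 3.95 and 1.86 FPKM (-0.79). With equal group medians, the first 3 no longer passed the rule (0.53, 0.57 and 0.42), whereas *Speer7-ps1* still did (-1.17). It was also lower at Zt 6, at 4.55 and 2.07 FPKM (-0.86).

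A start site with a member within 2 kb was found for 252 annotated genes. Those with the highest mean FPKM in cortex included *Hk1*, *Mast2*, *Asap1* and *Sgk1*. *Hk1*, a hexokinase of glycolysis, had 35.4 FPKM in WT against 49.7 in *Snord116del* at Zt 6, and 37.1 against 58.6 FPKM at Zt 16. *Sgk1*, a kinase induced by glucocorticoids, was at 11.3 and 11.6 FPKM at Zt 6 and at 7.47 and 12.8 at Zt 16. Both were past the fold rule at Zt 16 and not at Zt 6, whereas *Mast2*, a microtubule-associated kinase gene, was past it at Zt 6 only and *Asap1* at neither time. With equal group medians none of these 4 was past it upward at either time, and *Sgk1* (-0.72) was past it downward at Zt 6.

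Most tested genes of the function lists were higher at Zt 6, with or without a member, and fewer of them were with equal group medians. The counts higher stand beside 49.2% of all genes tested that were higher at Zt 6, or 14.8% with equal group medians. The counts lower stand beside 7.42% of all genes tested that were lower at Zt 6, or 24.5% with equal group medians. For the long genes of synaptic adhesion and the receptors (medians 968.4 and 353.9 kb), the closer background is genes over 200 kb. Of these, 78.8% with a member and 82.1% without one were higher at Zt 6 as deposited. The share by length with equal group medians was not worked out. With that scaling, the counts higher at Zt 6 were 14 of 20 with a member and 21 of all 29 for synaptic adhesion, 5 of 7 and 16 of 24 for the receptors, 2 of 2 and 7 of 19 for the clock, and 1 of 3 and 4 of 19 for mTOR and insulin/IGF signalling. Those lower were 0 with a member in these 4 lists, against 8.56% of all tested genes with a member. With or without a member, 1 of 19 clock and 2 of 19 signalling genes were lower. The values that follow are as deposited. For synaptic adhesion, 19 of the 20 tested genes with a member were higher at Zt 6 and 0 at Zt 16, and of all 29 tested genes of the list 27 were higher at Zt 6. The exception with a member was *Nrxn2*, a neurexin, at 27.3 FPKM in WT and 36.4 in *Snord116del* (log2 difference 0.40, and -0.41 with equal group medians). Among those higher were *Cntnap2*, a neurexin-like protein of axons, at 4.97 and 14.1 FPKM, *Nlgn1*, a neuroligin, at 2.10 and 9.66, and *Ntm*, a neural cell adhesion gene, at 26.6 and 87.7. For glutamate and GABA receptors, 7 of 7 tested genes with a member were higher at Zt 6, as were 24 of 24 of the whole list. *Grin2b*, an NMDA receptor subunit, was at 4.46 and 15.4 FPKM, and *Gabra2*, a GABA-A receptor subunit, at 2.32 and 11.2. *Rora* (2.60 and 8.31 FPKM) and *Hlf* (4.41 and 13.0) were higher at Zt 6, as were 16 of all 19 tested clock genes. *Deptor* (4.32 and 8.93), *Igf1r* (2.06 and 7.53) and *Igf2r* (0.938 and 3.10) were higher too, as were 14 of the 19 tested genes of their list in all, whereas *Rictor* was below the filter at 0.590 and 2.73 FPKM. *Peg12* was between 0.178 and 0.250 FPKM in the 4 groups. Of the other imprinted genes with a member, only *Commd1* was tested, and it was past the rule at neither time (9.82 and 7.87 FPKM at Zt 6, 12.8 and 18.1 at Zt 16), though with equal group medians it was past it downward at Zt 6 (-1.03). None of the 11 tested H3K4 methyltransferase subunit genes had a member, and 6 of them were higher and 0 lower at Zt 6, or 4 and 2 with equal group medians. Of the 19 tested genes on the list of other imprinted genes, 13 were higher and 2 lower at Zt 6, or 7 and 3 with equal group medians.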

How the data were processed

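Peak lists of 5 ChIRP-seq libraries and an RNA-seq table of 4 groups were analysed. Per the labels, the authors used Bowtie2 2.0.0 and MACS 1.4.2 on mm9. They called peaks in each library against WT input, with limits on the false discovery rate and on the enrichment. This deposited ratio was used only to rank replicate 1 peaks in 1 alternative. The replicate 2 list has positions only, so the read depth at each member is unknown. By the read counts that the study reports, replicate 2 had the fewest aligned reads of the 5 libraries. It also aligned the smallest part of its reads, and the bearing of this on the members was not tested. The authors deposited 1 FPKM value per group from TopHat2 2.0.5 and Cuffdiff 2.0.2; their fold changes and q-values were not used, and the number of unused per-sample columns is 0.

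Positions in the peak lists were read as 0-based starts and are printed 1-based. Genes and sequence came from NCBIM37 with GENCODE vM1. A tandem repeat is at least 6 units and 12 bases of a 1 to 6 base unit. Of 23235 genes, 20850 matched an autosomal symbol. Shares have exact Clopper-Pearson 95% intervals and differences Newcombe intervals. A fold rule replaced limma because the table holds group values. Members and gene lists were chosen with earlier results of these data known. Named genes were the 15 with the most members, the 5 with a member near a start site and the highest FPKM, the largest differences past the fold rule (5 and 5 at Zt 6, 3 and 3 at Zt 16) and list genes with a member. Some genes and sequences that this rule names are not reported here. Scripts were tested on simulated data and used pysam 0.24.0, matplotlib 3.10.9, scipy 1.17.1, pandas 2.3.3, numpy 2.4.6 and Python 3.11.15. Members on chromosome 18 were left out of sequences shown and of the consensus. Alternatives covered the distance, the lists that exclude, merging, width, copies, chromosomes, annotation, repeat definition and fold rule.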

Additional observations from a re-analysis of the deposited data

Results flagged for a closer look

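In 4 of the 596 tested genes with a member (0.671%), *Snord116del* was past the fold rule in opposite directions at Zt 6 and Zt 16. The same was true of 443 of all 9838 tested genes (4.50%), with either order of directions counted. All 4 genes with a member were lower at Zt 6 and higher at Zt 16. The log2 difference was -1.45 and 0.76 in *Atp5o*, -0.91 and 0.76 in *Mrpl33*, -0.87 and 0.70 in *2310061C15Rik* and -0.62 and 0.83 in *Cda*. With equal group medians, none of the 4 was past the rule at Zt 16 (0.29, 0.31, 0.27 and 0.57, in the same order). With 1 value per group, the difference between the times was not tested.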

How the results depend on the processing

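No paired analysis was possible because the RNA table holds 1 value per group and no replicate numbers, and no result comes from a test over replicates. Of 181 values recomputed under the alternatives, 95 stayed within their limits, 85 moved and 1 reversed. Without WT *116HG* replicate 1 among the excluding lists there were 8005 members, 2.07% exonic, 47.7% with a run of A or T, 22.3% near a start site and a median gap of 182.1 kb. Requiring 2 kb, 5 kb, 20 kb or 50 kb from other lists gave median gaps of 243.3, 284.2, 443.2 and 770.7 kb. The exon share was 1.29% at 2 kb, the run share 33.7% at 20 kb and 29.4% at 50 kb, and 1878 members were left at 50 kb. Run shares and median gaps were 33.3% and 299.5 kb with the WT NSC list not used, 32.7% and 287.2 kb with the replicate 1 list alone, and 39.0% and 284.4 kb with its peaks at or above the median fold over input only. Merging within 10 kb gave a gap of 373.9 kb. Members at least as wide as the median numbered 2333 (run 22.6%, gap 680.4 kb), and those with a single-copy middle 1588 (exon 1.45%, run 42.9%, gap 1013 kb). The exon share was 0.582% for protein-coding genes, and the run share 37.7% when a tandem repeat needed 10 units or 20 bases. Genes with a member numbered 2300 within 10 kb and 680 by start site within 5 kb. Genes with a member higher at Zt 6 numbered 113 with a mean of at least 5 FPKM, 270 at a fold of 2 and 161 with equal group medians (69.3%, 45.3% and 27.0%, against 37.4%, 26.7% and 14.8% of all genes tested). At Zt 16 they numbered 19, 0 and 0 under these settings (19 is 11.7%, against 34.6%, 1.20% and 1.21% of all genes tested), and 90 and 55 with pseudocounts of 0.1 and 0.5 (15.1% and 9.23%, against 30.5% and 23.9%). With equal group medians, the median log2 difference of genes with a member at Zt 16 turned from 0.23 to -0.046. Under the alternatives tried, the run share stayed between 22.6% and 47.7%, above the 1.04% of open windows. Fewer or more regions shift gaps and counts by construction; the cause of the other shifts was not tested. Each list is 1 library, so the spread between ChIRP experiments is not known.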
